A study of Mus musculus with 12 samples.

Results

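A set of 7 genes linked to the germinal center, *Gm600*, *Basp1*, *Rgs13*, *Gcet2*, *Mef2b*, *Fas* and *Plxnb2*, were followed as low-level transcripts in sorted mouse follicular B cells. They are 7 of 13574 genes listed in the deposited tables of read counts, and were picked by symbol after earlier results of these data were known. RNA sequencing was done on splenic follicular B cells (CD21/35- CD23+) from male mice that were *Gpr174*+/Y (WT) or *Gpr174*-/Y (KO). In the KO allele a tdTomato reporter replaces the only coding exon of *Gpr174*, a G-protein-coupled receptor gene on the X chromosome, so the gene is missing from every cell of the animal and not from B cells alone. Cells were frozen straight from the sort (0 h) or following 4 h in complete RPMI with no stimulus added, and each genotype has 3 libraries at either time, which gives 4 groups. All 7 genes were in both tables, and all 7 passed the filter on low counts.

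A germinal center is the site in a follicle where activated B cells divide, mutate their antibody genes and are selected by T cells. B cells there turn on a program driven by the repressor BCL6 and lose many transcripts of resting follicular cells. A sorted follicular B cell population consists mostly of resting cells, in which such transcripts are low. *Gm600* (annotated as *Nuggc*) encodes a nuclear GTPase of germinal center B cells, *Gcet2* (annotated as *Gcsam*) a signaling adaptor that restrains their movement, and *Mef2b* a transcription factor that acts upstream of *Bcl6*. *Rgs13* encodes a GTPase-accelerating protein that dampens chemokine receptor signaling. *Fas* encodes a death receptor and *Plxnb2* a receptor for class 4 semaphorins. *Basp1* encodes a calmodulin-binding protein of the inner plasma membrane with properties like those of MARCKS and GAP43.

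The genes lie on 6 chromosomes in GRCm38/mm10 (GENCODE M21): *Rgs13* on chromosome 1 (144138654 to 144177372), *Mef2b* on chromosome 8 (70139711 to 70167488), *Gm600* on chromosome 14 (65598546 to 65648531), *Gcet2* on chromosome 16 (45610380 to 45622867) and *Fas* on chromosome 19 (34290666 to 34327772). Both *Basp1* (25363277 to 25413764) and *Plxnb2* (89155549 to 89180788) are on chromosome 15. Counts summed over all annotated exons of a gene. The annotated *Mef2b* gene overlaps *Borcs8* (70139499 to 70147319) on the same strand, so the *Mef2b* count is uncertain to the extent that reads of that stretch were assigned to either gene. RefSeq promoter windows of GRCm38.p6, from 250 bases before to 50 after a transcription start, were found for 6 of the 7 genes (7 windows, with 2 for *Plxnb2*) and not for *Gm600*. The windows of *Mef2b* (chr8:70152511-70152810, plus strand), *Basp1* (chr15:25413715-25414014, minus strand) and *Rgs13* (chr1:144177323-144177622, minus strand) are shown, since the first 2 hold the only motif matches and the last has the lowest GC content. Capitals mark the octamer in *Mef2b* and the CRE core in *Basp1*.
Mef2b: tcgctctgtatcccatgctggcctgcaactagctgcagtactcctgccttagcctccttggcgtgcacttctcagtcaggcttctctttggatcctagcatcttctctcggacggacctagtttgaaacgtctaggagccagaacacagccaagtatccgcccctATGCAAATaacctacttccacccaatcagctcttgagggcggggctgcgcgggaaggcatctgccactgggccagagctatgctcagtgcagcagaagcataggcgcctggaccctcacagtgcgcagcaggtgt
Basp1: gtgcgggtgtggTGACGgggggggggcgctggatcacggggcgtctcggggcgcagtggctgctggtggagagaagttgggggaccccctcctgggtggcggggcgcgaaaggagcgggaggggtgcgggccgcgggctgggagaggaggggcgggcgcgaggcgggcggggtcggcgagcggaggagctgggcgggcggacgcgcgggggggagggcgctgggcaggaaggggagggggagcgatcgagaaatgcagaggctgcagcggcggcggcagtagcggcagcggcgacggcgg
Rgs13: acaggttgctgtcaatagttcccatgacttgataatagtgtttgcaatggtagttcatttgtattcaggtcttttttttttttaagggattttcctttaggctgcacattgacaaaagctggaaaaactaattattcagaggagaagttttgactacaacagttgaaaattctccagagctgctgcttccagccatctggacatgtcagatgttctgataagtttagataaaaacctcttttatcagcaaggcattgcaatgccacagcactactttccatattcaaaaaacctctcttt

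Motifs were searched on both strands, after the windows had been read. The octamer ATGCAAAT, the element bound by OCT factors in many B cell genes, was found once, in the *Mef2b* window. It was at -85 from the RefSeq transcription start of that window, which lies inside the annotated gene and not at its first base. Of 32851 promoter windows, 1.74% hold the octamer. The full cAMP response element TGACGTCA (1.79% of windows) and the MEF2 consensus (3.19% of windows) were in none of the 7 windows. The core of the cAMP response element, TGACG, which is contained in the full one, was found at -238 from the *Basp1* start and is in 20.8% of all windows. GC content ran from 36.7% in the *Rgs13* window to 78.0% in that of *Basp1*. In these windows the 6 genes thus share neither base composition nor any of these motifs.

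Library totals ran from 6098941 to 11618787 counts, and replicates of a group differed by more than sampling noise (chi-square per degree of freedom 2.00 to 9.88). *Gpr174* was 144 to 151 CPM (counts scaled to a common library size with TMM factors) in WT 0 h and 71.1 to 74.4 CPM in KO 0 h. At 4 h it was 158 to 175 CPM in WT and 108 to 122 CPM in KO. WT was above KO at both times, in the direction of the labels, and reads of the gene remained in every KO library. The follicular B cell markers (10 of 12 in the tables) summed to 9754 to 10152 CPM in WT 0 h and 9169 to 9767 CPM in KO 0 h, and at 4 h to 6749 to 7039 CPM in WT and 8170 to 8421 CPM in KO. Summed levels of 8 T cell markers reached at most 37.8 CPM and those of 9 macrophage markers 73.4 CPM, with 6 of the 9 in the 4 h table. Of the T cell markers *Lck* was called at 4 h, as higher in KO (log2 fold change -0.62, edgeR adjusted p = 0.0158). Dendritic cell markers summed to 6.83 to 11.2 CPM at 0 h, and at 4 h to 9.35 to 14.6 CPM in WT and 3.67 to 8.42 CPM in KO, where *Flt3* was called (log2 fold change 1.53, edgeR adjusted p = 0.00344). Transitional B cell markers summed to 712 to 821 CPM in WT 0 h and 569 to 644 CPM in KO 0 h, with *Cd24a* the 1 of 3 tested that was called (0.37, adjusted p = 0.0138). At 4 h *Cd93* (0.66, adjusted p = 0.00346) and *Vpreb3* (0.49, adjusted p = 0.000591) were higher in WT, and the sums overlapped. Plasma cell markers overlapped at 0 h, where *Sdc1* was higher in WT (1.64, adjusted p = 0.0101), and summed at 4 h to 537 to 590 CPM in WT and 457 to 493 CPM in KO, with *Irf4* called (0.23, adjusted p = 0.0344). Neutrophil markers (4 of 5 in the 0 h table) summed to 37.4 to 120 CPM in KO 0 h against 19.4 to 53.9 CPM in WT 0 h, and *Camp*, a granule peptide gene, was the 1 called (log2 fold change -2.42 ± 0.52, edgeR adjusted p = 0.0378). Erythroid markers (3 of 5 in the tables) summed to 60.3 to 217 CPM in KO 0 h and 70.7 to 100 CPM in WT 0 h, with no member of the list called by edgeR or DESeq2 and 1 at an unadjusted p under 0.05. All 4 neutrophil markers tested at 0 h were higher in KO, each with an unadjusted edgeR p under 0.05. At 4 h the neutrophil sums were 21.2 to 116 CPM in KO and 22.2 to 56.6 CPM in WT, with none called. The part of these other cells in the results below was not tested.

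All 7 genes were low. Row sums over 6 libraries ran from 211 to 831 reads at 0 h and from 95 to 404 reads at 4 h, against a smallest row of 10 in either table. On the scale of CPM per kilobase of exon, which allows levels of different genes to be compared, *Mef2b* was highest in WT 0 h at 4.86 ± 2.04 (SD, n = 3). *Fas* (3.79 ± 0.83), *Basp1* (3.21 ± 1.38), *Gm600* (2.05 ± 0.56), *Rgs13* (2.05 ± 0.66), *Plxnb2* (1.78 ± 0.23) and *Gcet2* (1.71 ± 1.02) followed on the same scale. No neighbors in that order were separated, since the library ranges of each pair overlapped. In KO 0 h *Basp1* (7.93 ± 0.85), *Mef2b* (7.68 ± 2.21) and *Gm600* (7.29 ± 2.22) led, with overlapping ranges, and a gap without overlap lay between *Fas* (5.17 ± 0.32) and *Gcet2* (3.26 ± 1.30). After culture *Mef2b* was first in both genotypes, at 3.35 ± 0.95 in WT and 5.08 ± 1.72 in KO. In each its library range overlapped that of *Gm600*, the next in order. *Rgs13* was last in WT 4 h at 0.67 ± 0.22 CPM per kilobase, with a range that overlapped that of *Gcet2*.

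**Figure D1:**
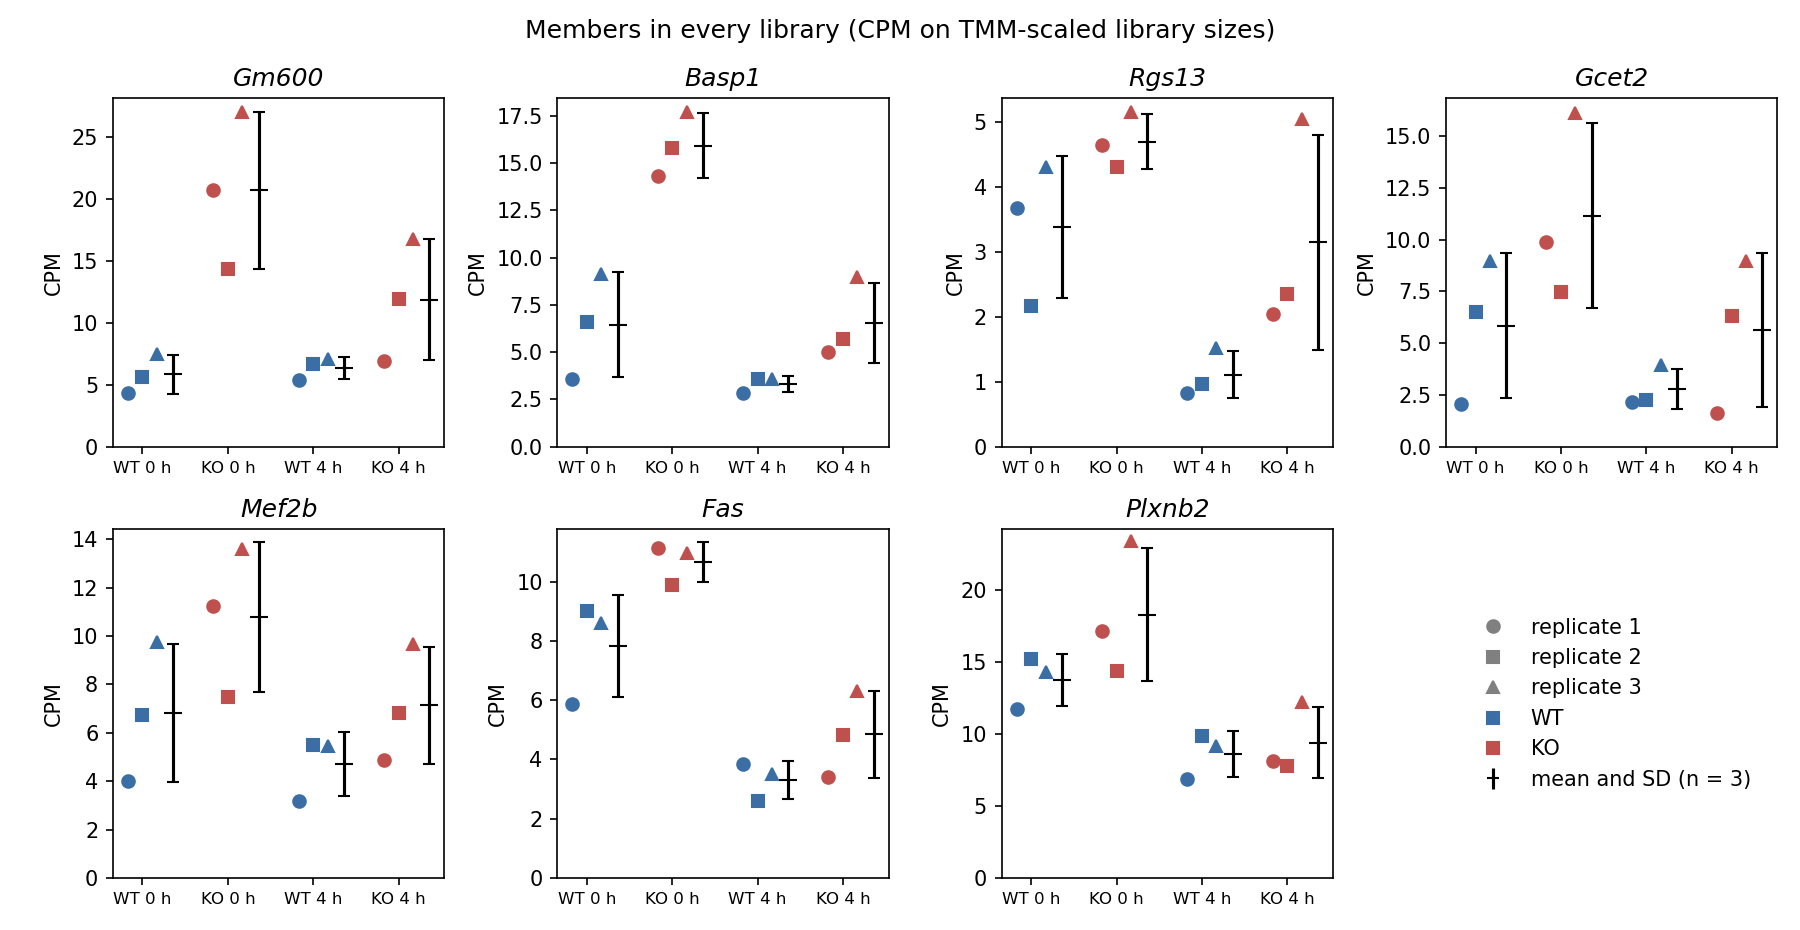
Level of each of the 7 genes in every library, in CPM on the linear vertical axis, by group on the horizontal axis; symbols give the replicate and black bars the mean and SD of 3 libraries. *Gm600* and *Basp1* sit higher in all KO 0 h libraries than in any WT 0 h library, and most genes are lower at 4 h than at 0 h.

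The 0 h comparison asks which transcripts differ between genotypes before culture. It is taken to be part of what the genes were picked on, although the pick is not recorded. Its values are therefore given as a description with no test. In that comparison 0.987% of 11345 genes were called differentially expressed (DEGs, edgeR adjusted p under 0.05), with 0.485% of all genes called higher in KO and 0.502% higher in WT. All 7 genes were higher in KO by their mean, with a median log2 fold change (WT over KO) of -0.65, against 0.00026 over all genes tested. The libraries of KO lay wholly above those of WT for 3 of the 7, *Gm600*, *Basp1* and *Fas*, and 8.10% of all genes showed that arrangement (10.2% the reverse, 18.3% either). In bulk libraries, more cells of a type and more RNA per cell cannot be told apart.

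*Gm600* was 4.34, 5.64 and 7.5 CPM in WT 0 h replicates 1 to 3 and 20.7, 14.4 and 27.0 CPM in KO 0 h. The lowest KO library was well above the highest WT library, and the mean was 3.55-fold higher in KO (log2 fold change -1.82 ± 0.23, SE). For *Basp1* the levels were 3.58, 6.62 and 9.13 CPM in WT 0 h and 14.3, 15.8 and 17.7 CPM in KO 0 h. The groups were again apart, with a 2.47-fold higher mean in KO (log2 fold change -1.29 ± 0.24). These had the 2 largest log2 fold changes of the 7 genes and ranked 15 and 51 from the most KO-biased of the 11345 genes by log2 fold change.

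The germinal center adaptor gene *Gcet2* was 2.06, 6.51 and 8.96 CPM in WT 0 h and 9.91, 7.46 and 16.1 CPM in KO 0 h. The groups overlapped, and WT 0 h replicate 1 lay far under its group (log2 fold change -0.92 ± 0.36). *Mef2b* gave 4.01, 6.72 and 9.74 CPM in WT 0 h against 11.3, 7.46 and 13.6 CPM in KO 0 h (log2 fold change -0.65 ± 0.28), again with overlap. *Rgs13* was 3.69, 2.17 and 4.31 CPM in WT 0 h and 4.65, 4.31 and 5.15 CPM in KO 0 h (log2 fold change -0.47 ± 0.30), where the highest WT and the lowest KO library were level. For these 3 genes the spread within WT was as wide as the difference between genotypes.

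Of the receptors, *Fas* was 5.86, 9.0 and 8.62 CPM in WT 0 h and 11.1, 9.91 and 11 CPM in KO 0 h. KO was above WT in every library, by a modest margin (log2 fold change -0.45 ± 0.20). *Plxnb2* was 11.7, 15.2 and 14.3 CPM in WT 0 h and 17.1, 14.4 and 23.4 CPM in KO 0 h, with overlap (log2 fold change -0.42 ± 0.18).

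At 4 h the genotypes were compared in libraries that the 0 h contrast does not use, and adjusted p-values are given for the genes. Which values the genes were picked on is not recorded. The 0 h contrast was taken to be the one, but results at both times were known when the genes were picked. Both times may also come from the same animals. These p-values, the calls made from them and the shared sign of the 7 genes are therefore a description and not an independent test. At this time 10.9% of 11123 genes were DEGs, 5.67% higher in KO and 5.22% higher in WT. With that limit, *Basp1* and *Gm600* were higher in KO than in WT with an adjusted p under the threshold, *Rgs13* missed it narrowly, and the other 4 did not pass. All 7 log2 fold changes were below 0 (median -0.88, against 0.00483 over all genes), and KO libraries lay wholly above WT libraries for 2 of the 7, *Basp1* and *Rgs13*, where 13.3% of all genes did (14.5% the reverse, 27.8% either).

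*Basp1* was 2.84, 3.56 and 3.60 CPM in WT 4 h and 5.03, 5.70 and 8.98 CPM in KO 4 h. Every KO library exceeded every WT library (log2 fold change -0.96 ± 0.28, edgeR adjusted p = 0.0387, higher in 3 of 3 KO libraries). *Gm600* was 5.34, 6.64 and 7.09 CPM in WT 4 h and 6.93, 11.9 and 16.7 CPM in KO 4 h. Its groups overlapped, since KO 4 h replicate 1 was within the WT range (log2 fold change -0.88 ± 0.27, adjusted p = 0.0472). For *Rgs13* the levels were 0.83, 0.97 and 1.53 CPM in WT 4 h and 2.04, 2.35 and 5.05 CPM in KO 4 h, a 2.83-fold higher mean in KO (log2 fold change -1.42 ± 0.44, adjusted p = 0.0504). The WT 4 h values rest on 5, 6 and 14 reads, and the exact Poisson interval of 5 reads is 1.62 to 11.7 reads (95%, counting error only).

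These calls were close to the threshold. When each of the 6 libraries was left out in turn, *Gm600* and *Basp1* each stayed called in 1 of the 6 fits, that without KO 4 h replicate 1. Without KO 4 h replicate 3, the library with the highest level of all 7 genes, the log2 fold change was -0.56 (adjusted p = 0.259) for *Gm600* and -0.68 (adjusted p = 0.213) for *Basp1*. *Rgs13* was called in 4 of 12 alternative fits, with adjusted p-values from 0.0242 to 0.281.

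*Gcet2* was 2.17, 2.27 and 3.93 CPM in WT 4 h and 1.63, 6.32 and 8.98 CPM in KO 4 h. The KO libraries spanned the whole WT range (log2 fold change -0.96 ± 0.45, adjusted p = 0.217). Without KO 4 h replicate 1, its lowest library, *Gcet2* was called (-1.40, adjusted p = 0.0153), and without KO 4 h replicate 3 the value was -0.48 (adjusted p = 0.653). *Mef2b* gave 3.17, 5.5 and 5.46 CPM in WT 4 h and 4.89, 6.81 and 9.68 CPM in KO 4 h (log2 fold change -0.58 ± 0.28, adjusted p = 0.243). *Fas* was 3.84, 2.59 and 3.49 CPM in WT 4 h and 3.40, 4.83 and 6.32 CPM in KO 4 h (log2 fold change -0.54 ± 0.30, adjusted p = 0.294). All 3 had overlapping groups. *Plxnb2* was 6.84, 9.87 and 9.17 CPM in WT 4 h and 8.16, 7.80 and 12.2 CPM in KO 4 h, and the interval of 2 SE on either side of its difference ran from a 0.80-fold to a 1.46-fold level in KO (log2 fold change -0.11 ± 0.22, adjusted p = 0.820). Without KO 4 h replicate 3 its sign turned, to 0.12.

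**Figure D2:**
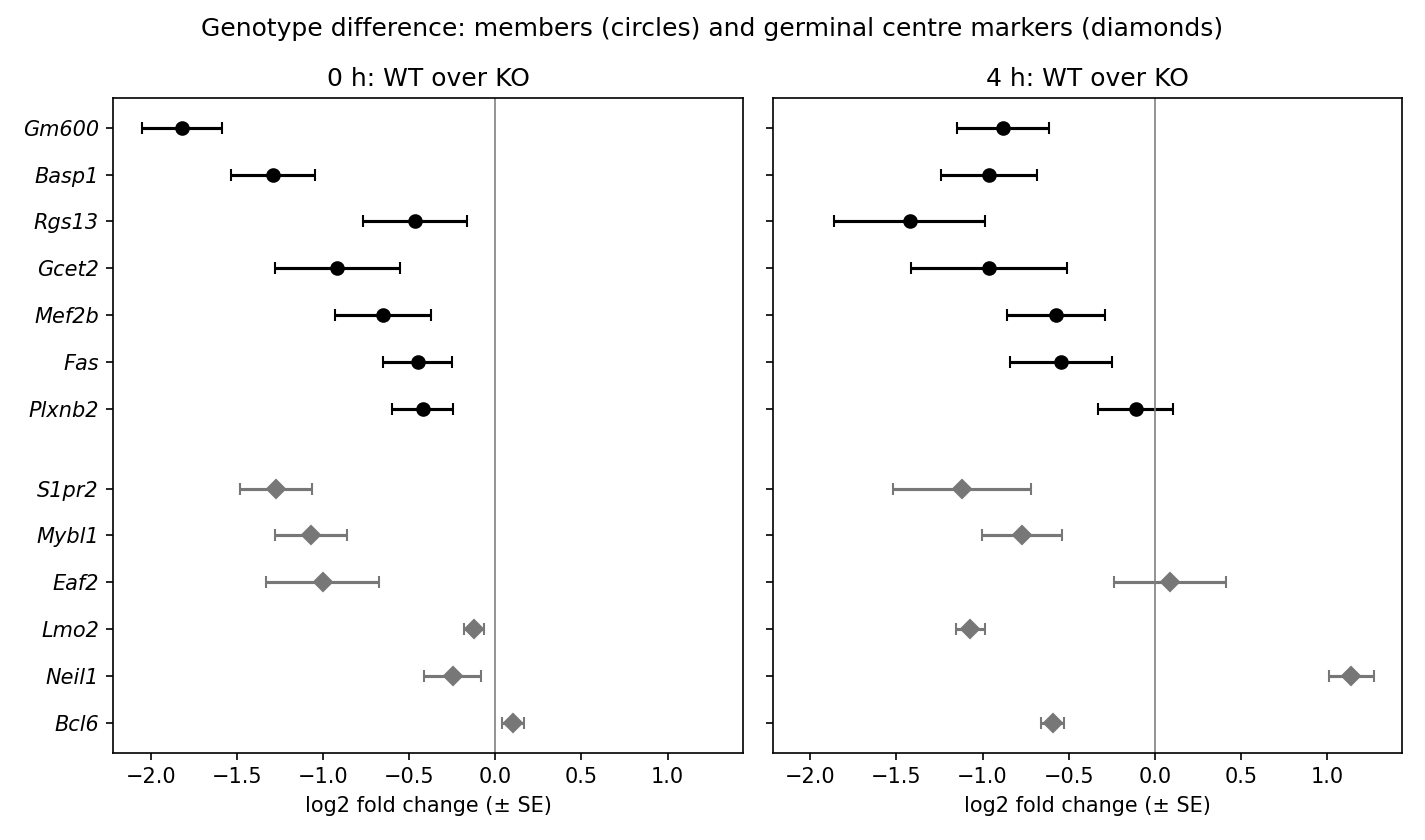
Log2 fold change of WT over KO at 0 h (left) and 4 h (right) with its standard error (3 libraries against 3), for the 7 genes (circles) and 6 germinal center markers (diamonds); values left of 0 are higher in KO. All circles lie left of 0 at both times, while *Bcl6*, *Lmo2* and *Neil1* move away from 0 between 0 h and 4 h, *Neil1* to the opposite side.

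To see how other transcripts of the germinal center behaved, a list of 8 defining markers was read in the same fits. At 0 h, 3 of the 7 that could be tested were higher in KO and 4 did not pass, with a list median of -1.0. *S1pr2*, the sphingosine receptor that holds B cells in the germinal center, was 4.23, 5.64 and 7.06 CPM in WT 0 h and 14.1, 11.9 and 15.1 CPM in KO 0 h (log2 fold change -1.27 ± 0.21, edgeR adjusted p = 0.00685). *Mybl1*, a MYB family factor, was 13.0, 26.6 and 22.9 CPM in WT 0 h and 40.7, 33.0 and 57.1 CPM in KO 0 h (-1.07 ± 0.21, adjusted p = 0.0219). For both genes, all KO 0 h libraries were above all WT 0 h libraries. The call held in 11 of 12 alternative fits for *S1pr2* and in 8 for *Mybl1*. *Eaf2*, an elongation factor partner, had a log2 fold change of -1.0 ± 0.33 (adjusted p = 0.182), while *Bcl6* (0.10 ± 0.06, adjusted p = 0.552) and *Lmo2* (-0.13 ± 0.06, adjusted p = 0.388), which resting follicular cells also express, stood near 0 at 195 to 233 and 266 to 325 CPM. Without KO 0 h replicate 1 none of the list was called by edgeR (all genes called fell from 112 to 26). DESeq2 on all libraries called 1, and 5 had an unadjusted edgeR p under 0.05. These markers varied with the 7 genes over the same libraries, so their 0 h calls are not independent of the values taken to have picked those genes.

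At 4 h the marker list split. *Bcl6* was higher in KO 4 h than in WT 4 h, at 188 to 214 CPM against 125 to 135 CPM (log2 fold change -0.59 ± 0.07, edgeR adjusted p = 1.9e-05). *Lmo2*, a LIM domain adaptor gene, was 123 to 134 CPM in KO 4 h against 53.6 to 69.4 CPM in WT 4 h (-1.07 ± 0.08, adjusted p = 4.22e-07). *Neil1*, which encodes a DNA glycosylase, went the other way, at 22.2 to 33.3 CPM in KO 4 h and 51.7 to 64.7 CPM in WT 4 h (1.14 ± 0.13, adjusted p = 2.29e-05). *Mybl1* was the remaining call (-0.77 ± 0.23, adjusted p = 0.0441). *S1pr2* kept the sign it had at 0 h without passing (-1.12 ± 0.40, adjusted p = 0.0916). Of 7 tested, 3 were therefore higher in KO and 1 in WT. The calls of *Bcl6*, *Lmo2* and *Neil1* held in all 12 alternative fits, and that of *Mybl1* in 8 of 12.

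Regulators and transcripts that fall in germinal center cells gave a mixed picture. Of 16 regulators, 1 was called at 0 h, *Cd83* (log2 fold change -0.31 ± 0.07, edgeR adjusted p = 0.0356). At 4 h 2 regulators were higher in WT and 4 in KO, among them *Cd83* with the sign turned (0.68 ± 0.08, adjusted p = 4.8e-05) and *Bach2*, a repressor of plasma cell fate (-0.50 ± 0.06, adjusted p = 6.7e-05). Of 9 tested genes known to be low in germinal center B cells, *Klf2*, a quiescence factor, was higher in WT at 0 h (0.43 ± 0.05, adjusted p = 0.000341) and *Cd38* higher in KO (-0.25 ± 0.05, adjusted p = 0.029). At 4 h 5 of the 9 were higher in KO and 2 in WT. *Fcer2a* (CD23, -0.90 ± 0.06, adjusted p = 4.3e-08) and *Klf2* (-0.59 ± 0.07, adjusted p = 6.43e-05) were then among those higher in KO, and *Ccr7* (1.18 ± 0.07, adjusted p = 1.04e-08) was higher in WT. At 0 h the call of *Cd83* held in 6 of 12 alternative fits and that of *Cd38* in 7, while *Klf2* held in 12. So transcripts low in germinal center B cells and transcripts high in them were both found among the genes higher in KO at 4 h.

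The partners of the 7 genes were read next. For the Fas pathway, edgeR called none of 11 tested at 0 h (1 at an unadjusted p under 0.05, none by DESeq2), and at 4 h called 1, *Cflar*, the caspase-8 inhibitor c-FLIP (log2 fold change -0.23 ± 0.06, adjusted p = 0.0231). Among plexins, semaphorins and their effectors none of 11 was called at 0 h (3 unadjusted, none by DESeq2), and at 4 h 1 of 10, the ligand gene *Sema4b*, was higher in WT (0.53 ± 0.08, adjusted p = 0.000211). *Plxnb1* and *Plxnb3*, the other class B plexins, were too low to test. For MEF2 factors and partners none of 11 was called at 0 h (2 unadjusted, none by DESeq2). At 4 h *Mef2d* (0.55 ± 0.06, adjusted p = 8.49e-06) and *Mef2c* (0.21 ± 0.05, adjusted p = 0.0209) were higher in WT, and the class IIa deacetylases *Hdac7* (-0.79 ± 0.08, adjusted p = 3.27e-06) and *Hdac9* (-1.24 ± 0.09, adjusted p = 1.72e-07), which bind MEF2 factors, were higher in KO. *Mef2b* itself had a log2 fold change of -0.58 at that time and did not pass. None of 6 RGS genes was called at 0 h (1 unadjusted, none by DESeq2), and at 4 h *Rgs2* was higher in WT (1.41 ± 0.11, adjusted p = 2.96e-07). Of the 7 RGS genes tested at 4 h, 4 had an unadjusted p under 0.05. The other 3 of these, named after their values were seen, had the sign of *Rgs13* and all KO libraries above all WT libraries, but did not pass (edgeR): *Rgs3* (-0.51, adjusted p = 0.116), *Rgs10* (-0.88, adjusted p = 0.152) and *Rgs14* (-0.31, adjusted p = 0.103). That arrangement was seen for 13.3% of all genes at 4 h. Of the 7 tested, 4 had a negative and 3 a positive log2 fold change. The RGS list summed to 259 to 268 CPM in WT 4 h and 214 to 224 CPM in KO 4 h. Of 5 tested MARCKS-like proteins and calmodulins, 1 was called at 0 h, *Calm2* (0.28 ± 0.05, adjusted p = 0.0155), and 1 at 4 h, *Marcks* (0.92 ± 0.09, adjusted p = 3.81e-06), both higher in WT while *Basp1* was higher in KO. The calls of *Cflar* at 4 h and *Calm2* at 0 h held in 7 of 12 alternative fits each, and that of *Mef2c* in 9.

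The 7 genes varied together from library to library. Summed over the 7, the level was 35.2, 51.8 and 62.5 CPM in WT 0 h, 89.1, 73.6 and 114 CPM in KO 0 h, 25, 31.4 and 34.3 CPM in WT 4 h and 32.1, 45.7 and 67.9 CPM in KO 4 h. Every KO 0 h library was above every WT 0 h library, whereas KO 4 h replicate 1 lay within the WT 4 h range. After removal of the group means, all 21 pairs of genes had a positive Pearson r of log2 CPM over the 12 libraries (0.37 to 0.92, median 0.68), as a description of libraries that share animals, depth and cell makeup. In KO 4 h, replicate 3 was highest for 7 of the 7 genes and replicate 1 lowest for 6. Replicate 1 was also lowest for 6 genes in WT 0 h and for 6 in WT 4 h, and replicate 2 for 6 in KO 0 h.

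Other lists moved with them. In KO 4 h replicates 1 to 3 the 7 genes deviated from their group mean by -0.55, -0.02 and 0.57 on average (log2 CPM). The 8 germinal center markers deviated by -0.30, -0.01 and 0.31, and 28 proliferation genes by -0.34, 0.09 and 0.25 in the same libraries. In WT 0 h the 7 genes deviated by -0.48, 0.05 and 0.42, the markers by -0.31, 0.06 and 0.25 and the proliferation genes by -0.19, 0.01 and 0.17. The libraries that were low for the 7 genes were low for both other lists in all 4 groups. The proliferation list summed to 833 to 1058 CPM in KO 0 h against 528 to 650 CPM in WT 0 h, where 9 of 28 genes were higher in KO, with *Mki67* (log2 fold change -1.23 ± 0.14, edgeR adjusted p = 0.000341) and *Ccna2* (-1.46 ± 0.21, adjusted p = 0.00172) among them. At 4 h its sums were 644 to 852 CPM in KO and 624 to 707 CPM in WT, and 3 of 28 were higher in KO (*Mki67*, -0.83 ± 0.17, edgeR adjusted p = 0.00424). With 1 library left out that count ran from 1 (without KO 4 h replicate 2) to 9 (without KO 4 h replicate 1). Its part in the genotype differences of the 7 genes was not tested.

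**Figure D3:**
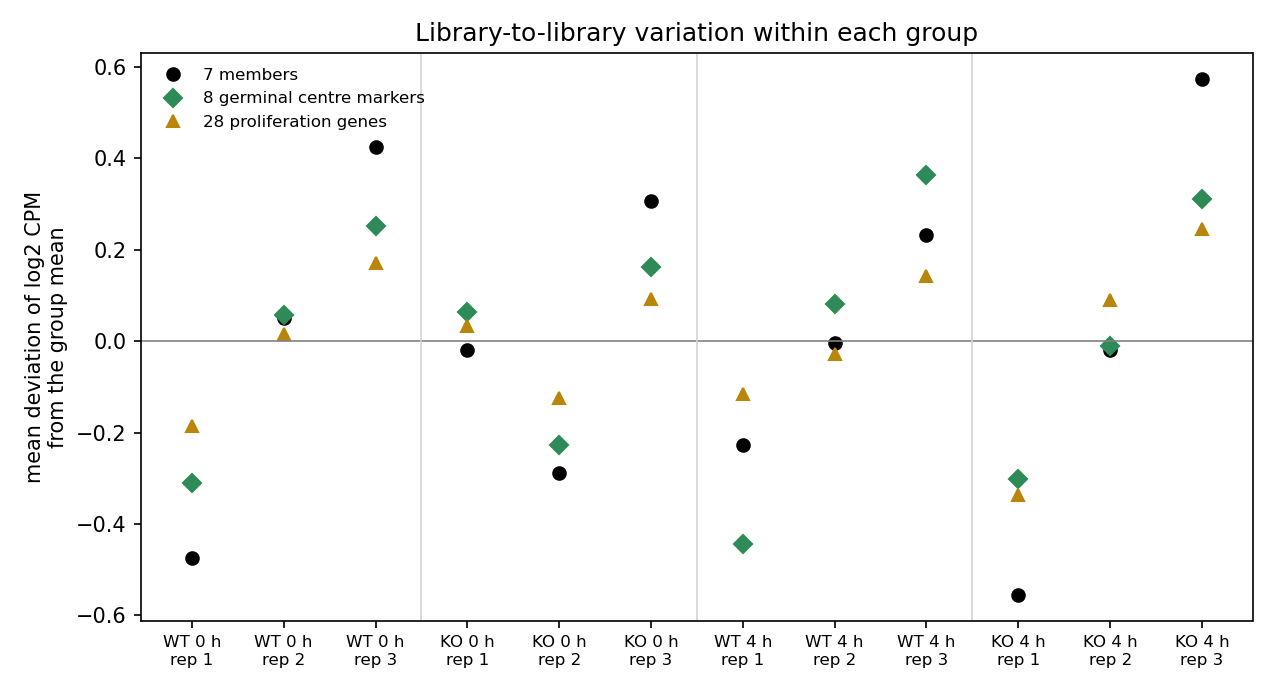
Mean deviation of log2 CPM from the group mean in each of the 12 libraries, for the 7 genes, 8 germinal center markers and 28 proliferation genes; vertical lines part the groups. The 3 lists share their lowest library in every group, and the 7 genes span the range from -0.55 to 0.57.

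Culture was read in a fit over all 12 libraries, which did not pair libraries by mouse. Since the 0 h libraries enter it, values for the 7 genes are a description with no test. Of 11572 genes, 33.1% were DEGs of culture in WT (18.0% lowered, 15.1% raised) and 23.3% in KO (13.0% lowered, 10.3% raised). In KO cells all 7 genes were lower at 4 h than at 0 h, with log2 fold changes from -0.69 to -1.38 and a median of -1.07 (0.00162 over all genes). In WT cells 6 of the 7 were lower, with a median of -1.06 (0.00483 over all genes). *Gm600* was the exception, at 0.02 ± 0.30 in WT and -0.91 ± 0.25 in KO.

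Of the receptors, *Fas* and *Plxnb2*, the estimates for WT and then KO were -1.34 ± 0.25 and -1.24 ± 0.24 (*Fas*), and -0.76 ± 0.21 and -1.07 ± 0.20 (*Plxnb2*). In the same order they were -1.06 ± 0.30 and -1.38 ± 0.26 for *Basp1*, -1.13 ± 0.50 and -1.09 ± 0.44 for *Gcet2*, and -0.63 ± 0.32 and -0.70 ± 0.30 for *Mef2b*. The estimate for *Rgs13* was -1.65 ± 0.41 in WT and -0.69 ± 0.35 in KO. The WT change minus the KO change ran from -0.97 ± 0.55 for *Rgs13* to 0.93 ± 0.39 for *Gm600*, and 6.39% of all genes were called in that contrast (2.45% with the higher change in WT, 3.94% in KO). For the other 5 it lay within about 1 SE of 0, with an SE as large as 0.64 for *Gcet2* (-0.05 ± 0.64).

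**Figure D4:**
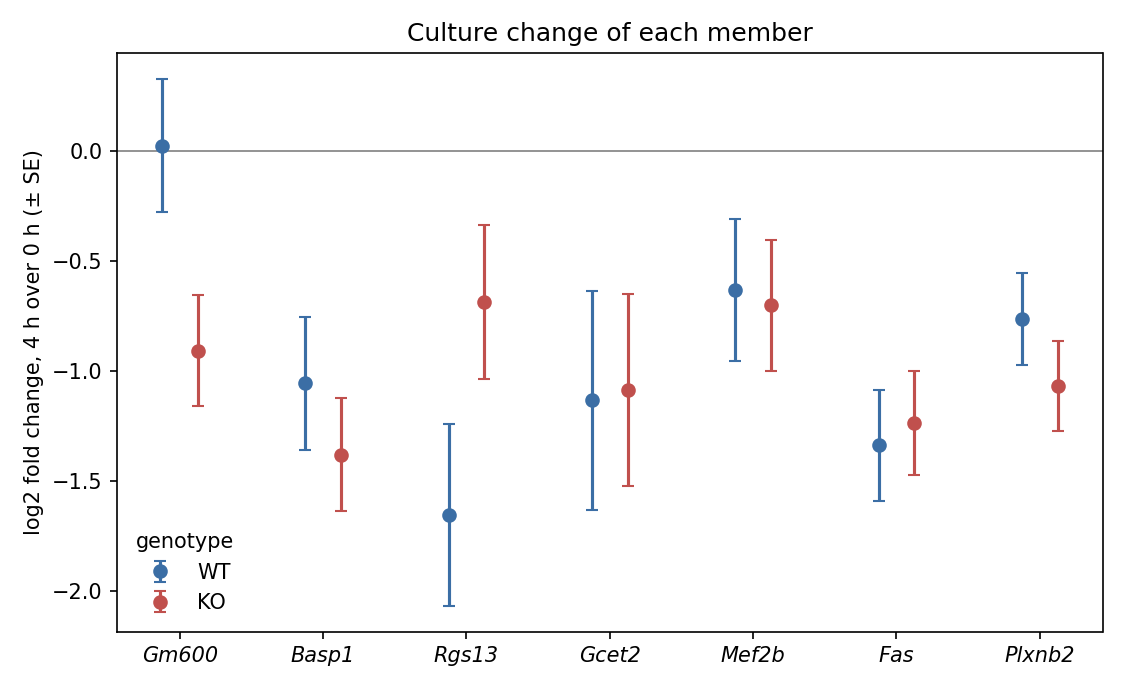
Log2 fold change of 4 h over 0 h with its standard error for each of the 7 genes, in WT (blue) and KO (red), from the fit over 12 libraries. All values lie below 0 but that of *Gm600* in WT, at 0.02.

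Among the markers, culture lowered *Lmo2* (-2.25 ± 0.08, edgeR adjusted p = 4.51e-15) and *Bcl6* (-0.84 ± 0.07, adjusted p = 3.95e-09) in WT cells and raised *Neil1* (2.20 ± 0.15, adjusted p = 1.1e-10). In KO cells *Lmo2* fell (-1.30 ± 0.07, adjusted p = 3.34e-11), *Neil1* rose (0.82 ± 0.15, adjusted p = 0.000444), and *Bcl6* was -0.14 ± 0.07 (adjusted p = 0.162). *S1pr2* fell in both (-1.11 ± 0.35 in WT, adjusted p = 0.0198, and -1.26 ± 0.30 in KO, adjusted p = 0.00355), a call that in WT held in 16 of 19 alternative fits.

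For each gene the 3 transcripts most like it were taken as those with the highest Pearson r of log2 CPM over the 12 libraries after removal of group means, among 11572 genes. The 21 entries had r from 0.91 to 0.98. On the proliferation list were 4 of them, a count that leaves out genes not on it such as *Kntc1*. None of the entries was another of the 7 or a germinal center marker of the list. They are the highest of 11572 correlations over few libraries and were not tested, so single names may stand this high by chance. *Gm600* was most like *Kntc1* (0.96), *Cenpe* (0.95) and *Mki67* (0.92), the first a mitotic checkpoint gene and the second a centromere motor gene. *Gcet2* was most like *Mki67* (0.98), *Ywhah* (0.97) and *Zfp964* (0.97), and *Mef2b* most like *Sap30l* (0.97), *Rgs10* (0.95) and *Hmmr* (0.94). *Basp1* was most like *Snapc3* (0.95), *Stil* (0.94) and *Dll1* (0.94). For *Rgs13* these were *1520402A15Rik* (0.94), *F630043A04Rik* (0.91) and *Ppox* (0.91), for *Fas* they were *Nans* (0.93), *Snrpg* (0.93) and *4933434E20Rik* (0.93), and for *Plxnb2* *1300018I17Rik* (0.96), *Cd3e* (0.95) and *Adpgk* (0.95). With group means kept, *Hmmr* for *Mef2b* was the entry that remained, and *Mef2b* itself was among the 3 for *Gcet2* (0.93).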

How the data were processed

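The authors prepared libraries with a whole-transcriptome amplification kit (Ovation RNA-seq System V2), sequenced single-end reads, used STAR for alignment (mm10) and HTSeq for reads per gene, as their methods state, and tested with DESeq2. Versions, annotation and strand setting are not given in the sources used here, so overlapping genes could not be separated. The authors deposited raw counts per gene as whole numbers, in 1 table per time (13269 genes at 0 h, 13142 at 4 h, 12837 in both). The smallest row sum was 10, 0 rows lacked a gene name, and the number of columns with no matching sample was 0.

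Counts were filtered with filterByExpr, scaled by TMM and tested with edgeR 4.0.16 (glmQLFit, glmQLFTest) in R 4.3.3, with Benjamini-Hochberg adjustment over all genes tested and a threshold of 0.05. Genotype (WT over KO) was fitted on the 6 libraries of a time, and culture (4 h over 0 h) and the interaction on all 12. DESeq2 1.42.0, other scalings, no filter, other sample sets, a replicate block and leaving out each library were alternatives, and a block within genotype was added after seeing the data. Each ± after a log2 fold change is a standard error. Levels are CPM with factors from each table, so levels at the 2 times were scaled separately. Fits were also run on simulated data in which genes varied independently, without the shared variation between libraries described above. Where nothing says that libraries came from separate cultures, p-values measure the spread between these libraries, which the study describes as 3 mice per genotype. Counting intervals are exact Poisson.

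The 7 genes, the gene lists and the tests were chosen with earlier results of these data known. Named genes were the 7, from each list up to 4 called genes of smallest p plus those that define a list, the 3 genes most like each of the 7, and *Gpr174*. *Plxnb1* and *Plxnb3* were added as paralogs of *Plxnb2*. A few list members are counted in their lists but not reported here by name.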

Additional observations from a re-analysis of the deposited data

Results flagged for a closer look

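Groups of 3 libraries are too small for a test of single outlying libraries. The results flagged here are genes of the lists whose culture change differed between genotypes by the interaction test (WT change minus KO change, log2, edgeR adjusted p under 0.05, which 6.39% of 11572 genes passed). None of the 7 germinal center-associated genes was tested in that contrast.

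Of the germinal center markers, *Bcl6* (-0.70) and *Lmo2* (-0.95) fell more in WT, and *Neil1* (1.38) rose more in WT. Of the regulators, the difference was -0.52 for *Bach2*, 0.98 for *Cd83*, -0.72 for *Id3*, -0.50 for *Il21r* and -0.33 for *Tcf3*. Of the genes low in germinal center B cells, it was -0.56 for *Bcl2*, 0.85 for *Ccr6*, 0.97 for *Ccr7*, -0.40 for *Cd38*, -1.10 for *Fcer2a* and -1.02 for *Klf2*. Among proliferation genes it was 1.10 for *Cenpe*, 0.41 for *Mcm3* and 0.46 for *Mcm4*. For partners of the 7 genes it was 0.44 for *Mef2d*, -0.78 for *Hdac7*, -1.28 for *Hdac9*, 0.49 for *Sema4b*, 0.56 for *Marcks* and -0.51 for *Calm2*. The call of *Mcm3* held in 14 of 18 alternative fits and those of *Mcm4* and *Marcks* in 15. Alternatives were not tabulated for *Bcl2*, *Cd38* and *Tcf3*, and the remaining genes held in all 18.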

How the results depend on the processing

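Of 560 values of the 7 genes under alternatives, over 5 contrasts, 537 had the sign of the reported value. The others were of estimates near 0: *Plxnb2* at 4 h, *Gm600* for culture in WT, and *Gcet2*, *Mef2b* and *Fas* for the interaction. At 0 h all 7 stayed higher in KO in all 12 alternatives each. These fits reuse the 0 h libraries, on which the genes may have been picked, so the shared sign is a description with no test. Calls of the 7 genes at 4 h carry the limit on their p-values given above. At 4 h 2 of the 7 genes were called as reported, 1 by DESeq2 (*Gm600*; *Basp1* had an adjusted p of 0.054), 1 with all 4 groups in 1 fit (*Rgs13*), and 0 to 4 when 1 library was left out, with 0 in 5 of the 6 such fits and 4 without KO 4 h replicate 1. Genes called at 4 h were 776 to 1361 with a library left out (776 without KO 4 h replicate 1), against 1212. At 0 h they were 26 to 161 against 112, and the germinal center markers called were 0 to 3 against 3, with 0 without KO 0 h replicate 1. DESeq2 called 1 of these markers at 0 h. The cause of these moves, such as the smaller number of libraries, was not tested. Counts of 5 to 50 reads per library limit what can be seen for *Rgs13*.

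No same-number WT and KO libraries of 1 time had a correlation of deviations above 0.1 (-0.10 to 0.07 over 6 pairs). Correlations this low cannot tell whether the numbers pair the genotypes. Replicate 3 had the highest mean deviation of the 7 genes in every group. Between 0 h and 4 h the correlations were 0.13, 0.07 and 0.12 in WT and -0.04, 0.15 and 0.15 in KO, and 5 of the 6 libraries at 0 h correlated best with their own number, a hint from the data that numbers may mark the mouse, which the labels do not say. With the replicate block within each genotype, added after seeing the data, genes called were 3980 for culture in WT (3830 as reported), 2859 in KO (2697) and 842 for the interaction (739), and the culture values of the 7 genes moved by less than the spread between libraries. With the replicate block across genotypes 3 of the 7 genes were called at 4 h under the same limit, *Rgs13* included (edgeR adjusted p = 0.0242). Genes called were then 138 at 0 h and 1062 at 4 h.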
